A study of Mus musculus with 8 samples.

Results

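The set described here holds 37 genes that carry glucose into the cell, break it down to pyruvate and lactate, store it as glycogen or pass pyruvate to the mitochondrion. They were chosen as a list of gene symbols covering these steps and matched to the symbols in the deposited count table. Earlier results of these data were known at that choice. Shares of the set beside those of all genes therefore describe this list and are no independent test. All 37 symbols were found, and they correspond to 38 of the 57010 Ensembl genes, because Aldoa names 2 of them (ENSMUSG00000030695 and ENSMUSG00000114515). All 38 passed the filter on low counts, and fold changes were tested for 17976 genes in all.

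RNA sequencing was done on bulk cultures of mouse embryonic stem cells, which are cultured cells of the early embryo able to form all of its tissues. There were 4 groups of 2 libraries. The group HSVTK GANC held cells with a 2C::HSVTK reporter given ganciclovir (GANC), and HSVTK DMSO held cells with the same reporter given the solvent DMSO. Control GANC and Control DMSO were cells labelled as control with the same treatments. The reporter is meant to place the thymidine kinase of herpes simplex virus in cells that pass through a state resembling the embryo with a pair of cells (the 2C-like state), where the enzyme makes ganciclovir toxic. Neither dose nor duration is stated in the labels, nor is the content of the Control cells. The labels also do not call the 2 libraries of a group separate cultures, and p-values accordingly reflect spread among libraries that may be purely technical.

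Glucose enters through transporters of the SLC2 family, is trapped as glucose 6-phosphate by hexokinase and is split into smaller sugars that yield ATP on the way to pyruvate. Lactate dehydrogenase turns pyruvate into lactate, which leaves through SLC16 transporters, whereas the pyruvate dehydrogenase complex sends it to the citric acid cycle unless a pyruvate dehydrogenase kinase switches the complex off. Mouse embryonic stem cells are known for a high rate of glycolysis, and many of these genes are textbook targets of hypoxia-inducible factor (HIF), whose DNA recognition element contains ACGTG or GCGTG.

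Promoter windows of 250 bases before the annotated start were read from RefSeq (GRCm38.p6) for 36 of the 37 symbols. No entry was used for Slc2a3. The 5 windows below, each read 5′ to 3′ on the gene's own strand, show 4 genes that were lower in HSVTK GANC and 1 that passed no test between the treatments. Capitals mark every ACGTG or GCGTG found on either strand, so that a match on the other strand reads CACGT or CACGC, and CACGTG counts as ACGTG on both strands.
Pgm1: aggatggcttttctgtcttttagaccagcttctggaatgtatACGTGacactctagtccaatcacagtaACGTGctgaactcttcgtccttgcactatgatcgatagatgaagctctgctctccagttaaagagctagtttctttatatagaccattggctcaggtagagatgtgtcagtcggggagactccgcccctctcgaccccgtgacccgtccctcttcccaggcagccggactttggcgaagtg
Slc16a3: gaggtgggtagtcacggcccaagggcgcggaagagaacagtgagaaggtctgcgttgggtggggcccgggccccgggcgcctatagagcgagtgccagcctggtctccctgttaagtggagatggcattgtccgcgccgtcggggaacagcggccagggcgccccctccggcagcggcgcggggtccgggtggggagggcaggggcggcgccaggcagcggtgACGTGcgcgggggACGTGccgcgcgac
Slc2a1: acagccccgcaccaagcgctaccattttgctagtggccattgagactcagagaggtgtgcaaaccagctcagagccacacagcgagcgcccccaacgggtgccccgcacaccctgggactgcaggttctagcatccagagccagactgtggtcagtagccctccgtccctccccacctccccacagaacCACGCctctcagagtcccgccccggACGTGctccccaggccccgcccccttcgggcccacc
Ldha: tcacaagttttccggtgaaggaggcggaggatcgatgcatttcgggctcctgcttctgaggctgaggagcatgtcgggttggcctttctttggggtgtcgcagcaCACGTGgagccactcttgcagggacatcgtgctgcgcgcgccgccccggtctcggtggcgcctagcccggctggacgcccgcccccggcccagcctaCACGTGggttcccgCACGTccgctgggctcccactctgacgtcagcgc
Pdhb: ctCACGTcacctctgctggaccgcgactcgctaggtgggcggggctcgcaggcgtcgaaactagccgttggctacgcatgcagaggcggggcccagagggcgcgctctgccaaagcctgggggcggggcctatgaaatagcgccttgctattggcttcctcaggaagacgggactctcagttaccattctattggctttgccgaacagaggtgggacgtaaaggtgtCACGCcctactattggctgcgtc
These are Pgm1 (chr4:99929201-99929450, plus strand), which swaps the phosphate of glucose between carbons on the way to and from glycogen, Slc16a3 (chr11:120948817-120949066, plus strand), a lactate exporter, and Slc2a1 (chr4:119108495-119108744, plus strand), a glucose transporter. Ldha (chr7:46845554-46845803, plus strand), the main lactate dehydrogenase subunit, is shown at the upstream of its annotated starts, and Pdhb (chr14:8172993-8173242, minus strand), a subunit of pyruvate dehydrogenase, is the gene that passed no treatment test. The Ldha window held 5 matches to ACGTG and 2 occurrences of CACGTG, and the other 4 windows held 2 matches each. Either motif occurred in 40 of the 53 windows of these genes (75.5%), in 12679 of all 32851 windows (38.6%) and in 9358 of the 21262 windows of protein-coding genes (44%). A gene can have several windows, and some of them overlap and count the same match again, as at Aldoa and Eno1. Within the set either motif occurred in a window of 22 of the 26 genes that were lower in HSVTK GANC than in HSVTK DMSO, and of 8 of the other 10. The share by gene was not counted over all genes. The lower genes without either motif were Gpi1, Tpi1, Gbe1 and Eno2, and the others without it were Dlat and Gys1. Their windows are not shown above. A match is a string of letters and not a measured binding site.

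Depth ran from 29704460 to 34184475 gene counts per library. The chi-square per degree of freedom between libraries of a group was 6.24 in HSVTK GANC, 3.58 in HSVTK DMSO, 8.39 in Control GANC and 3.86 in Control DMSO, so no pair was alike within sampling noise. Zscan4c, a defining gene of the 2C-like state, stood at 3.75 and 3.90 FPKM in HSVTK GANC and 2.07 and 1.58 in HSVTK DMSO. It had 2.20 and 1.82 FPKM in Control GANC and 2.30 and 1.80 in Control DMSO. Over the 16 listed 2C-like genes, summed counts per 1e+06 counts were 90.8 to 93.6 in HSVTK GANC and 44.1 to 44.6 in HSVTK DMSO. The same sum was 34.5 to 39.9 in Control GANC and 42.3 to 42.4 in Control DMSO. As labelled, that sum was thus higher with GANC in HSVTK cells, and with the HSVTK labels exchanged it would be lower with GANC. With either assignment, neither HSVTK group lay below a Control group in that sum. The reason for the difference between the HSVTK groups, and whether their labels are exchanged, was not tested. Every direction given below for an HSVTK group therefore rests on its label. The stem cell factor Pou5f1 was abundant in all libraries, at 259 to 312 FPKM, and it passed none of the 5 tests. FPKM are counts per kilobase of gene length and per 1e+06 counts of the library, scaled here with the TMM factors used in the tests.

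In HSVTK cells, glucose transporters, enzymes at most glycolytic steps, pyruvate dehydrogenase kinases and several glycogen genes had lower RNA levels after ganciclovir, going by the labels HSVTK GANC and HSVTK DMSO. Of the 38 genes, 27 were lower and 0 higher at a Benjamini-Hochberg adjusted p below 0.05 in the quasi-likelihood test of edgeR, which is what called means here. At an unadjusted p below 0.05, 1 was higher (ENSMUSG00000114515), DESeq2 called 0 higher, and limma on log2(FPKM + 1) called 2 higher, Pdhb and the Aldoa gene ENSMUSG00000114515. Over all 17976 genes tested, 28.5% were called, 13.3% higher and 15.2% lower. The genes' median log2 fold change was -0.56, and that of all genes was 0.01. At 9 genes the called decrease was at least 2-fold: Slc2a1, Slc2a3, Slc16a3, Aldoc, Tpi1, Ldhb, Pygl, Pgm1 and Pgm2. The HSVTK GANC and HSVTK DMSO libraries did not overlap at 33 of the 38 genes, as at 64.2% of all genes. In bulk samples, a smaller number of cells of some type and less RNA per cell cannot be told apart. The count of called genes ranged from 25 to 27 when 1 library was left out.

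In Control cells the same drug went with small increases. Of the 38 genes, 18 were higher and 1 lower in Control GANC than in Control DMSO, where 8.08% of all genes were called, 4.73% higher and 3.35% lower. The median log2 fold change was 0.21 for the set, where that of all genes was -0.00. Pgm1 was the 1 called gene with a change of at least 2-fold, and libraries did not overlap at 28 of the 38 genes, as at 49.5% of all genes. The number of called genes was 12 without Control DMSO replicate 2, and 6 when limma was run on log2(FPKM + 1). Slc2a1, Slc16a3, Pfkl and Pgm1 kept their calls under all 18 alternative settings.

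The difference between both responses was tested as an interaction. GANC minus DMSO was lower in HSVTK than in Control cells at 27 genes and higher at 1, Pfkfb2, where 25.6% of all genes were called, 11.6% higher and 14.0% lower. The median difference was -0.63 on the log2 scale over the set and 0.02 over all genes. The Pfkfb2 call (adjusted p = 0.0499) was lost without any 1 of the 8 libraries, with an adjusted p of 0.0649 to 0.167. The largest called differences were -3.41 ± 0.16 (SE) at Pgm1, -3.28 ± 0.60 at Pygl, -2.77 ± 0.16 at Aldoc and -2.57 ± 0.09 at Slc16a3. At 16 genes (42.1%) the call was lower with GANC in HSVTK cells and higher with GANC in Control cells, a combination found at 428 of all genes (2.38%). Those comparisons share no library. The calls in Control cells depended more on the processing, and 4 of all 19 held under every alternative setting, at Slc2a1, Slc16a3, Pfkl and Pgm1. How often the combination itself held was not counted. A further 11 genes were lower in HSVTK cells without a call in Control cells, and as labelled no gene was called in the same direction in both. These directions rest on the treatment labels of the HSVTK libraries: with those labels exchanged, an alternative chosen after the data were seen, the same 16 genes and the same 428 of all genes would be higher with GANC in both cell groups. Calls in both cell groups, in whichever directions, were thus found at 16 genes of the set and at 4.28% of all genes.

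**Figure D1:**
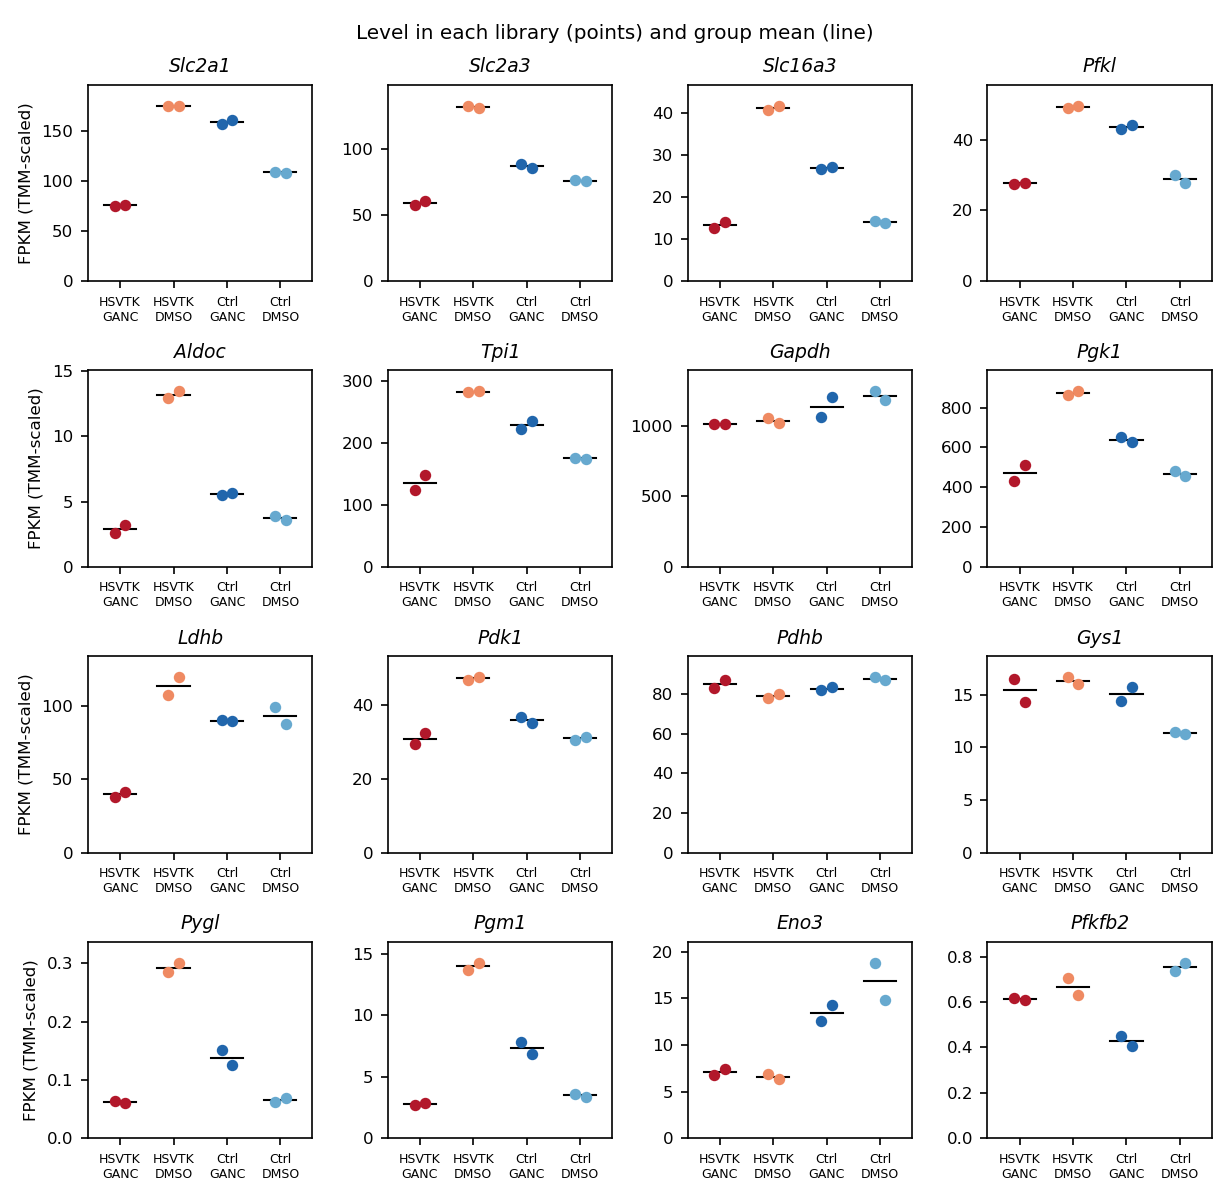
Level of 16 genes in each library (points) and the group mean (line), in TMM-scaled FPKM on axes that start at 0, with 2 libraries per group. Slc2a1, Slc16a3, Pfkl, Tpi1 and Pgm1 are highest in HSVTK DMSO and next in Control GANC, whereas Gapdh and Pdhb differ little between the treatments. Gapdh and Pdhb were called lower in HSVTK DMSO than in Control DMSO. Pfkfb2 is lowest in Control GANC.

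Glucose uptake rests here on Slc2a1 (GLUT1), the widespread basal transporter, and Slc2a3 (GLUT3), a transporter of high affinity. Slc2a1 (ENSMUSG00000028645) stood at 75.3 and 75.9 FPKM in HSVTK GANC, 175 and 175 in HSVTK DMSO, 157 and 161 in Control GANC and 109 and 108 in Control DMSO. The HSVTK DMSO libraries were the highest and the HSVTK GANC libraries the lowest, with no overlap between any groups. The log2 fold change with GANC was -1.21 ± 0.05 (SE, adjusted p = 4.08e-16) in HSVTK cells and 0.55 ± 0.05 (adjusted p = 7.54e-08) in Control cells. Slc2a3 (ENSMUSG00000003153) had 57.6 and 60.3 FPKM in HSVTK GANC, 133 and 131 in HSVTK DMSO, 88.9 and 85.3 in Control GANC and 76.3 and 75.9 in Control DMSO. Its groups kept the same order without overlap, but the step between the Control groups was smaller, at 0.19 ± 0.05 (adjusted p = 0.0169), than that in HSVTK cells, at -1.16 ± 0.05 (adjusted p = 6.96e-16). Added together, both transporters came to 134.5 FPKM in HSVTK GANC, 307.0 in HSVTK DMSO, 246.0 in Control GANC and 184.7 in Control DMSO, as group means.

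The exporters of lactate split by isoform. Slc16a3 (MCT4, ENSMUSG00000025161), the isoform typical of strongly glycolytic cells, stood at 12.7 and 14.0 FPKM in HSVTK GANC, 40.8 and 41.7 in HSVTK DMSO, 26.6 and 27.0 in Control GANC and 14.3 and 13.7 in Control DMSO. The HSVTK DMSO libraries exceeded all others, whereas HSVTK GANC and Control DMSO overlapped. On the log2 scale it fell by 1.63 ± 0.07 with GANC in HSVTK cells (adjusted p = 1.33e-16) and rose by 0.94 ± 0.07 in Control cells (adjusted p = 5.43e-10). Slc16a1 (MCT1), which carries lactate and pyruvate either way, had 46.5 and 52.2 FPKM in HSVTK GANC, 55.7 and 54.6 in HSVTK DMSO, 45.5 and 44.8 in Control GANC and 44.9 and 43.7 in Control DMSO. Its log2 fold change was -0.16 ± 0.06 in HSVTK cells (adjusted p = 0.0469) and 0.03 ± 0.06 in Control cells (adjusted p = 0.85). The HSVTK call was lost in most of the other fits, among them those with RLE scaling (adjusted p = 0.0523) or library size scaling (adjusted p = 0.120). It was also lost without HSVTK DMSO replicate 1 (-0.16) or 2 (-0.18) and without HSVTK GANC replicate 1 (-0.09). Bsg, the chaperone that brings both exporters to the cell surface, passed neither treatment test, at -0.12 ± 0.06 in HSVTK cells (adjusted p = 0.115) and 0.15 ± 0.06 in Control cells (adjusted p = 0.12). As a share of the summed FPKM of both exporters, Slc16a3 took 21.4 and 21.1% in HSVTK GANC, 42.3 and 43.3% in HSVTK DMSO, 36.9 and 37.6% in Control GANC, and 24.2 and 23.9% in Control DMSO.

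**Figure D2:**
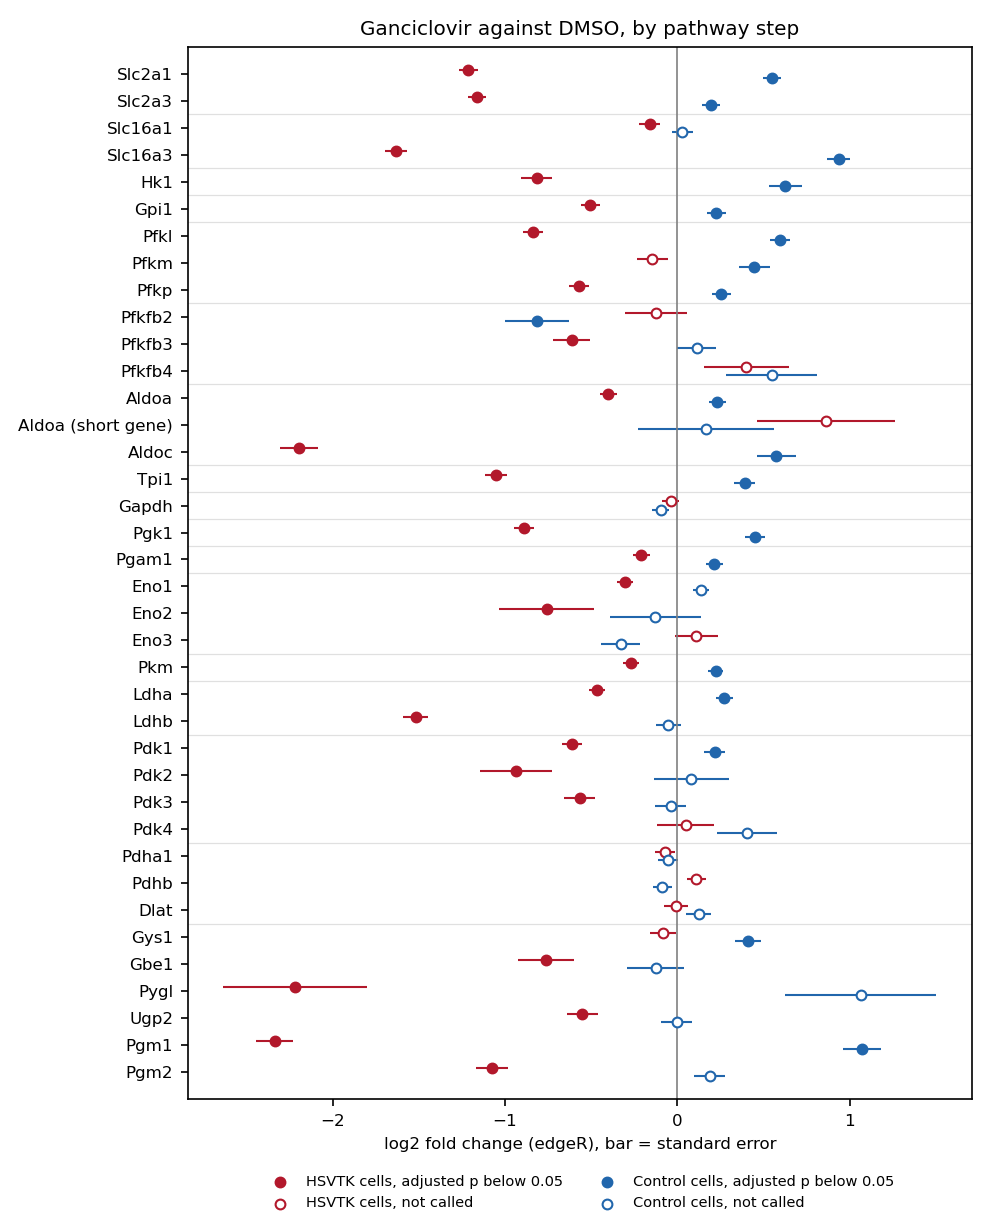
Log2 fold change of GANC against DMSO (x axis) for the 38 Ensembl genes in pathway order (y axis), in HSVTK cells (red) and Control cells (blue), with bars for the standard error and filled points for an adjusted p below 0.05. The red points of 27 genes lie left of 0 as calls, down to -2.34 at Pgm1, and 18 blue points lie right of 0 as calls, up to 1.07 at Pgm1.

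At the first steps of glycolysis, Hk1 (ENSMUSG00000037012), the widespread hexokinase that traps glucose, had 4.48 and 3.70 FPKM in HSVTK GANC, 7.07 and 7.34 in HSVTK DMSO, 4.55 and 4.77 in Control GANC and 3.24 and 2.78 in Control DMSO. HSVTK DMSO was again the highest group, and HSVTK GANC lay between the Control groups. With GANC it fell by 0.82 ± 0.09 in HSVTK cells (adjusted p = 9.62e-08) and rose by 0.63 ± 0.10 in Control cells (adjusted p = 0.000149), both on the log2 scale. The other hexokinase, Hk2, is not a listed gene but was the more abundant isoform in all libraries, at 25.5 and 23.3 FPKM in HSVTK GANC, 26.6 and 25.7 in HSVTK DMSO, 55.1 and 56.7 in Control GANC and 48.1 and 47.9 in Control DMSO. Its libraries separated the cell groups, with all HSVTK values below all Control values. Its log2 fold change with GANC was -0.10 ± 0.06 in HSVTK cells (adjusted p = 0.237) and 0.22 ± 0.06 in Control cells (adjusted p = 0.0179). Gpi1, which converts glucose 6-phosphate to fructose 6-phosphate, had 60.6 and 58.9 FPKM in HSVTK GANC, 84.9 and 84.7 in HSVTK DMSO, 79.3 and 77.2 in Control GANC and 69.9 and 64.0 in Control DMSO. Its groups did not overlap, and both treatment tests passed, at -0.51 ± 0.05 in HSVTK cells (adjusted p = 5.13e-08) and 0.22 ± 0.05 in Control cells (adjusted p = 0.01).

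Phosphofructokinase makes the committed step and has a liver (Pfkl), a muscle (Pfkm) and a platelet (Pfkp) isoform. Pfkl (ENSMUSG00000020277) stood at 27.5 and 27.8 FPKM in HSVTK GANC, 49.0 and 49.6 in HSVTK DMSO, 42.9 and 44.1 in Control GANC and 30.01 and 27.7 in Control DMSO. HSVTK GANC and Control DMSO were close and overlapped, and the other groups were well above them. The log2 fold change was -0.83 ± 0.06 in HSVTK cells (adjusted p = 1.13e-11) and 0.59 ± 0.06 in Control cells (adjusted p = 1.21e-07). Pfkp had 26.2 and 27.3 FPKM in HSVTK GANC, 40.3 and 39.3 in HSVTK DMSO, 34.4 and 31.3 in Control GANC and 27.6 and 27.5 in Control DMSO, and was called in the same directions, at -0.57 ± 0.06 (adjusted p = 9.45e-09) and 0.25 ± 0.06 (adjusted p = 0.00496). Pfkm behaved differently: it had 8.35 and 8.33 FPKM in HSVTK GANC, 9.72 and 8.74 in HSVTK DMSO, 11.0 and 11.6 in Control GANC and 8.30 and 8.27 in Control DMSO, so that Control GANC was the highest group. Its fold change was -0.14 ± 0.09 in HSVTK cells, which was not called (adjusted p = 0.248), and 0.44 ± 0.09 in Control cells (adjusted p = 0.00228). Summed over isoforms, phosphofructokinase came to 62.8 FPKM in HSVTK GANC, 98.4 in HSVTK DMSO, 87.7 in Control GANC and 64.7 in Control DMSO.

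The bifunctional enzymes that set fructose 2,6-bisphosphate, the main activator of phosphofructokinase, were weakly expressed and did not move together. Pfkfb3, the isoform with the strongest kinase activity, had 2.09 and 2.23 FPKM in HSVTK GANC, 3.25 and 3.37 in HSVTK DMSO, 2.26 and 2.11 in Control GANC and 2.19 and 1.85 in Control DMSO. It was lower with GANC in HSVTK cells, at -0.61 ± 0.11 (adjusted p = 7.65e-05), and not called in Control cells, at 0.11 ± 0.11 (adjusted p = 0.622). Pfkfb2, a heart and kidney isoform, had 0.616 and 0.610 FPKM in HSVTK GANC, 0.704 and 0.632 in HSVTK DMSO, 0.451 and 0.407 in Control GANC and 0.738 and 0.773 in Control DMSO. It was the one gene of the set called lower with GANC in Control cells, at -0.81 ± 0.19 (adjusted p = 0.00648). That call was lost without Control DMSO replicate 2 (adjusted p = 0.0619) or Control GANC replicate 2 (adjusted p = 0.0606). Pfkfb4 stayed between 0.347 and 1.000 FPKM in the 8 libraries and passed none of the 5 tests.

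Aldolase splits fructose 1,6-bisphosphate. Aldoa (ENSMUSG00000030695), the muscle and widespread form, carried nearly all of the aldolase FPKM, with 447 and 448 in HSVTK GANC, 590.3 and 591 in HSVTK DMSO, 512 and 549.8 in Control GANC and 467 and 437 in Control DMSO. Its changes were small, at -0.40 ± 0.05 in HSVTK cells (adjusted p = 4.9e-07) and 0.23 ± 0.05 in Control cells (adjusted p = 0.00404) on the log2 scale. Aldoc (ENSMUSG00000017390), the brain form, was far less abundant and moved far more, with 2.58 and 3.17 FPKM in HSVTK GANC, 12.9 and 13.4 in HSVTK DMSO, 5.52 and 5.64 in Control GANC and 3.88 and 3.61 in Control DMSO. No groups overlapped. It fell by 2.19 ± 0.11 in HSVTK cells (adjusted p = 7.84e-15) and rose by 0.57 ± 0.11 in Control cells (adjusted p = 0.0017) on the log2 scale. Its share of the summed aldolase FPKM was 0.574 and 0.703% in HSVTK GANC, 2.14 and 2.22% in HSVTK DMSO, 1.07 and 1.02% in Control GANC, and 0.823 and 0.82% in Control DMSO. The further Ensembl gene named Aldoa (ENSMUSG00000114515) stayed between 0.841 and 1.76 FPKM and passed no test. The sources used here do not say how reads were split between both Aldoa genes, which makes its values uncertain.

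Tpi1 (ENSMUSG00000023456), which interconverts the triose phosphates, stood at 125 and 148 FPKM in HSVTK GANC, 282 and 284 in HSVTK DMSO, 222 and 236 in Control GANC and 175 and 175 in Control DMSO. Its groups did not overlap, and its level changed by -1.05 ± 0.06 (adjusted p = 3.63e-13) in HSVTK cells and 0.39 ± 0.06 (adjusted p = 0.000229) in Control cells on the log2 scale. The next enzyme was an exception. Gapdh (ENSMUSG00000057666), which oxidises glyceraldehyde 3-phosphate and often serves as a reference gene, had 1012 and 1011 FPKM in HSVTK GANC, 1059 and 1019.9 in HSVTK DMSO, 1067 and 1204 in Control GANC and 1247 and 1184 in Control DMSO. The log2 fold change with GANC was -0.04 ± 0.05 in HSVTK cells (adjusted p = 0.604) and -0.10 ± 0.05 in Control cells (adjusted p = 0.242), and neither was called. Without Control GANC replicate 2, the higher of the Control GANC libraries, the Control value became -0.19 (adjusted p = 0.00606).

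Pgk1 (ENSMUSG00000062070), which makes the first ATP of the pathway, stood at 432 and 510.3 FPKM in HSVTK GANC, 864 and 882 in HSVTK DMSO, 651 and 626 in Control GANC and 480.3 and 455 in Control DMSO. The HSVTK DMSO libraries were the highest, Control GANC came next, and HSVTK GANC overlapped with Control DMSO. The log2 fold change was -0.89 ± 0.06 in HSVTK cells (adjusted p = 3.22e-12) and 0.45 ± 0.06 in Control cells (adjusted p = 1.66e-05). A copy counted separately, Pgk1-rs7, changed by -1.01 ± 0.21 (adjusted p = 0.000442) and 0.45 ± 0.21 (adjusted p = 0.223) in the same comparisons. The files list 23 such copies of genes in the set, of which 7 were tested and 16 never exceeded 5 counts. Pgam1, which moves the phosphate of phosphoglycerate, had smaller changes, at -0.21 ± 0.05 (adjusted p = 0.00216) in HSVTK cells and 0.21 ± 0.05 (adjusted p = 0.00802) in Control cells, around means of 442 FPKM in HSVTK GANC, 511 in HSVTK DMSO, 473 in Control GANC and 408 in Control DMSO.

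Enolase makes phosphoenolpyruvate. Eno1 (ENSMUSG00000063524), the widespread form, had 447 and 440.4 FPKM in HSVTK GANC, 544 and 553 in HSVTK DMSO, 526 and 571 in Control GANC and 509 and 491 in Control DMSO. It was lower with GANC in HSVTK cells, at -0.31 ± 0.05 (adjusted p = 1.15e-05), while 0.13 ± 0.05 in Control cells was not called (adjusted p = 0.0711). Values of Eno1 are uncertain because a near-identical copy, Eno1b, was counted separately with 27.3 to 29.9% as many counts as Eno1, and its fold changes were -0.30 ± 0.05 (adjusted p = 0.000107) and 0.02 ± 0.05 (adjusted p = 0.879). Eno3, the muscle form, sorted by cell group instead, with 6.82 and 7.41 FPKM in HSVTK GANC, 6.84 and 6.35 in HSVTK DMSO, 12.5 and 14.3 in Control GANC and 18.8 and 14.9 in Control DMSO. It passed neither treatment test. Eno2, the neuronal form, stayed between 0.330 and 0.778 FPKM, and its call in HSVTK cells (-0.76 ± 0.27, adjusted p = 0.0379) was lost when any HSVTK library was left out, with an adjusted p of 0.0595 to 0.201. Pkm, which makes pyruvate and the second ATP of the pathway, had 573 and 557 FPKM in HSVTK GANC, 682 and 680.4 in HSVTK DMSO, 683 and 722 in Control GANC and 611 and 595 in Control DMSO. Its changes were called but small, at -0.27 ± 0.04 (adjusted p = 3.27e-05) and 0.22 ± 0.04 (adjusted p = 0.00228). The counts are per gene and do not tell the M1 and M2 forms of Pkm apart.

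Lactate dehydrogenase is a tetramer of A and B subunits that interconverts pyruvate and lactate. Ldha (ENSMUSG00000063229) stood at 464 and 499.6 FPKM in HSVTK GANC, 659 and 673 in HSVTK DMSO, 565 and 592 in Control GANC and 489 and 469 in Control DMSO. HSVTK DMSO was the highest group, and HSVTK GANC overlapped with Control DMSO. The log2 fold change of Ldha was -0.47 ± 0.05 in HSVTK cells (adjusted p = 2.72e-08) and 0.27 ± 0.05 in Control cells (adjusted p = 0.00085). Ldhb (ENSMUSG00000030246) had 38.1 and 41.1 FPKM in HSVTK GANC, 107 and 119.7 in HSVTK DMSO, 90.3 and 89.5 in Control GANC and 99.1 and 87.3 in Control DMSO. The HSVTK GANC libraries were far below all others, and HSVTK DMSO was the highest group. The Ldhb fold change was -1.52 ± 0.07 in HSVTK cells (adjusted p = 3.19e-15) and -0.05 ± 0.07 in Control cells (adjusted p = 0.734), and the difference of -1.47 ± 0.10 was called (adjusted p = 1.06e-11). Ldhb made up 7.58 and 7.61% of the summed FPKM of both subunits in HSVTK GANC, 14.0 and 15.1% in HSVTK DMSO, 13.8 and 13.1% in Control GANC, and 16.8 and 15.7% in Control DMSO.

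**Figure D3:**
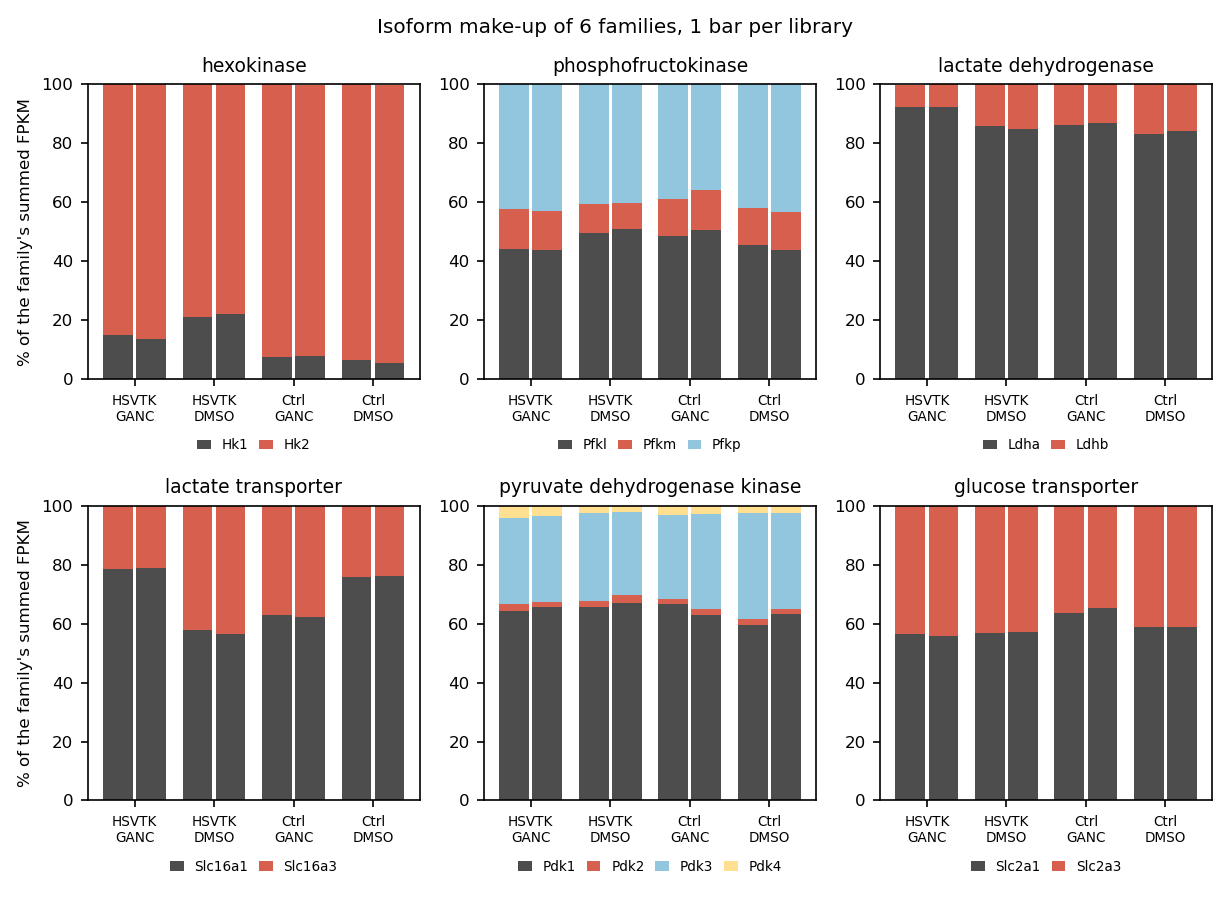
Share of each isoform in the summed TMM-scaled FPKM of 6 families (y axis, percent), with 1 bar per library and 2 libraries per group. The Ldhb share is lowest in HSVTK GANC (7.58 and 7.61%), the Slc16a3 share is highest in HSVTK DMSO (42.3 and 43.3%), and the Hk1 share is higher in all HSVTK libraries (13.7 to 22.2%) than in all Control libraries (5.49 to 7.75%).

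At the entry of pyruvate into the mitochondrion, 3 of the 4 kinases were lower with GANC in HSVTK cells, and the 3 listed subunits of the enzyme they inhibit passed neither treatment test. Pdk1 (ENSMUSG00000006494), a kinase of the pyruvate dehydrogenase complex, stood at 29.4 and 32.5 FPKM in HSVTK GANC, 47.0 and 47.7 in HSVTK DMSO, 36.8 and 35.3 in Control GANC and 30.7 and 31.5 in Control DMSO. HSVTK GANC and Control DMSO overlapped below the others, and both treatment tests passed, at -0.61 ± 0.06 in HSVTK cells (adjusted p = 5.97e-09) and 0.22 ± 0.06 in Control cells (adjusted p = 0.0212). Pdk3 had 13.3 and 14.6 FPKM in HSVTK GANC, 21.3 and 20.1 in HSVTK DMSO, 15.8 and 18.0 in Control GANC and 18.5 and 16.1 in Control DMSO. It was lower with GANC in HSVTK cells only, at -0.57 ± 0.09 (adjusted p = 1.66e-05), against -0.04 ± 0.09 in Control cells (adjusted p = 0.855), and the difference was called at -0.53 ± 0.13 (adjusted p = 0.00225). Pdk2, another kinase, ranged from 0.784 to 1.92 FPKM and was lower with GANC in HSVTK cells at -0.94 ± 0.21 (adjusted p = 0.00116). Pdk4, the kinase raised by fasting in other tissues, passed none of the 5 tests. The 4 kinases summed to 47.5 FPKM in HSVTK GANC, 71.4 in HSVTK DMSO, 55.6 in Control GANC and 50.6 in Control DMSO.

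The subunits of pyruvate dehydrogenase itself differed little between the treatments. Pdha1, the catalytic alpha subunit, had 63.9 and 68.5 FPKM in HSVTK GANC, 70.2 and 69.2 in HSVTK DMSO, 68.8 and 67.1 in Control GANC and 70.2 and 70.8 in Control DMSO, and its log2 fold changes were -0.07 ± 0.06 in HSVTK cells (adjusted p = 0.364) and -0.05 ± 0.06 in Control cells (adjusted p = 0.641). Pdhb, the beta subunit, had 83.3 and 87.0 FPKM in HSVTK GANC, 78.1 and 79.9 in HSVTK DMSO, 82.0 and 83.4 in Control GANC and 88.6 and 87.1 in Control DMSO, with changes of 0.11 ± 0.05 (adjusted p = 0.141) and -0.09 ± 0.05 (adjusted p = 0.372). With scaling by library size alone the HSVTK value of Pdhb was called, at 0.14 (adjusted p = 0.0448). Dlat, the acetyltransferase core, stayed between 17.0 and 19.8 FPKM and passed no test. Of the partners outside the list, Pdhx, which binds the third enzyme, and Dld, that enzyme, were not called with GANC in either cell group, and neither were Mpc1 and Mpc2, which carry pyruvate across the inner membrane. A phosphatase that reverses the kinases, Pdp1, had 1.44 and 1.41 FPKM in HSVTK GANC, 2.78 and 2.54 in HSVTK DMSO, 2.11 and 1.65 in Control GANC and 1.28 and 1.34 in Control DMSO. Its log2 fold change was -0.90 ± 0.15 in HSVTK cells (adjusted p = 2.92e-05) and 0.52 ± 0.15 in Control cells (adjusted p = 0.0306), the same directions as Pdk1.

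The glycogen genes included both phosphoglucomutases. Pgm1 (ENSMUSG00000025791) stood at 2.68 and 2.85 FPKM in HSVTK GANC, 13.7 and 14.2 in HSVTK DMSO, 7.78 and 6.88 in Control GANC and 3.62 and 3.35 in Control DMSO. All 4 groups were apart, with HSVTK DMSO highest and HSVTK GANC lowest. It fell by 2.34 ± 0.11 in HSVTK cells (adjusted p = 2.17e-15) and rose by 1.07 ± 0.11 in Control cells (adjusted p = 2.94e-07) on the log2 scale. Pgm2, a related enzyme that also acts on pentose phosphates, had 7.44 and 7.85 FPKM in HSVTK GANC, 16.0 and 16.2 in HSVTK DMSO, 9.86 and 9.95 in Control GANC and 8.68 and 8.74 in Control DMSO, with a change of -1.08 ± 0.09 in HSVTK cells (adjusted p = 5.8e-10) and 0.19 ± 0.09 in Control cells (adjusted p = 0.238). Here the Control groups were apart but the change was not called.

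Ugp2, which makes the UDP-glucose that glycogen is built from, was lower with GANC in HSVTK cells, at -0.55 ± 0.09 (adjusted p = 2.69e-05), with 7.85 and 7.69 FPKM in HSVTK GANC, 11.1 and 11.7 in HSVTK DMSO, 9.57 and 9.25 in Control GANC and 9.31 and 9.57 in Control DMSO. Gbe1, the branching enzyme, had 0.924 and 0.994 FPKM in HSVTK GANC, 1.77 and 1.48 in HSVTK DMSO, 1.31 and 1.02 in Control GANC and 1.27 and 1.28 in Control DMSO, and was lower by the same test in HSVTK cells, at -0.76 ± 0.16 (adjusted p = 0.000712). Gys1, the glycogen synthase of muscle and most tissues, went another way. It had 16.5 and 14.3 FPKM in HSVTK GANC, 16.7 and 16.0 in HSVTK DMSO, 14.4 and 15.7 in Control GANC and 11.4 and 11.2 in Control DMSO, so that Control DMSO stood below all other libraries. Its change was -0.08 ± 0.08 in HSVTK cells (adjusted p = 0.447) and 0.41 ± 0.08 in Control cells (adjusted p = 0.0014). Pygl, the liver form of glycogen phosphorylase, was near the lower end of detection, with 14 and 14 counts in HSVTK GANC, 63 and 71 in HSVTK DMSO, 35 and 26 in Control GANC, and 14 and 14 in Control DMSO. The Pygl fold change was -2.22 ± 0.42 in HSVTK cells (adjusted p = 0.000174) and 1.06 ± 0.44 in Control cells, where it was not called (adjusted p = 0.143) although the libraries did not overlap.

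The cell groups also differed without the drug. Under DMSO, 26 of the 38 genes were higher and 3 lower in HSVTK than in Control cells, where 33.7% of all genes were called, 16.4% higher and 17.3% lower. The median log2 fold change was 0.41 for the set and 0.00 for all genes, and libraries did not overlap at 37 of the 38 genes, as at 67.3% of all genes. Increases of at least 2-fold were called at 5 genes, namely Pygl (2.14 ± 0.42), Pgm1 (2.00 ± 0.11), Aldoc (1.81 ± 0.11), Slc16a3 (1.56 ± 0.07) and Hk1 (1.26 ± 0.09). The lower genes were Eno3 at -1.35 ± 0.12 (adjusted p = 4.13e-10), Gapdh at -0.23 ± 0.05 (adjusted p = 0.000539) and Pdhb at -0.15 ± 0.05 (adjusted p = 0.0289). The Pdhb call was lost when any of the 4 DMSO libraries was left out, with an adjusted p of 0.132 to 0.253. Hk2 went against Hk1, at -0.88 ± 0.06 (adjusted p = 2.16e-12), and both hexokinases together came to 33.3 FPKM in HSVTK DMSO and 51.0 in Control DMSO.

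Under GANC the direction was the other way round at most of these genes. Compared with Control GANC, 22 genes were lower and 1, Pfkfb2, was higher in HSVTK GANC, where 26.1% of all genes were called, 11.1% higher and 14.9% lower. Of those calls over all genes 42.8% were higher, and 54.1% with scaling by library size alone. The median was -0.28 for the set and 0.01 for all genes, and libraries did not overlap at 29 of the 38 genes, as at 59.6% of all genes. Called decreases of at least 2-fold were found at Pgm1 (-1.41 ± 0.11), Ldhb (-1.18 ± 0.07), Slc2a1 (-1.07 ± 0.05) and Slc16a3 (-1.01 ± 0.07). Gapdh was called at -0.17 ± 0.05 (adjusted p = 0.0113), but not without Control GANC replicate 2 (adjusted p = 0.172). The call of Pfkfb2 at 0.51 ± 0.19 (adjusted p = 0.0442) was lost when any 1 of the 8 libraries was left out, with an adjusted p of 0.0565 to 0.2004. In all, 19 genes (50%) were higher under DMSO and lower under GANC, as were 472 of all genes (2.63%), and 2 of the set, Gapdh and Eno3, were lower under both, as were 5.63% of all genes. The count of 19 also rests on the treatment labels of the HSVTK libraries. With those labels exchanged, 0 genes of the set and 103 of all genes (0.573%) were higher under DMSO and lower under GANC, while 8 genes of the set (21.1%) and 139 of all genes (0.773%) were lower under DMSO and higher under GANC. These comparisons of cell groups share no library with each other, but each shares libraries with the treatment comparisons.

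**Figure D4:**
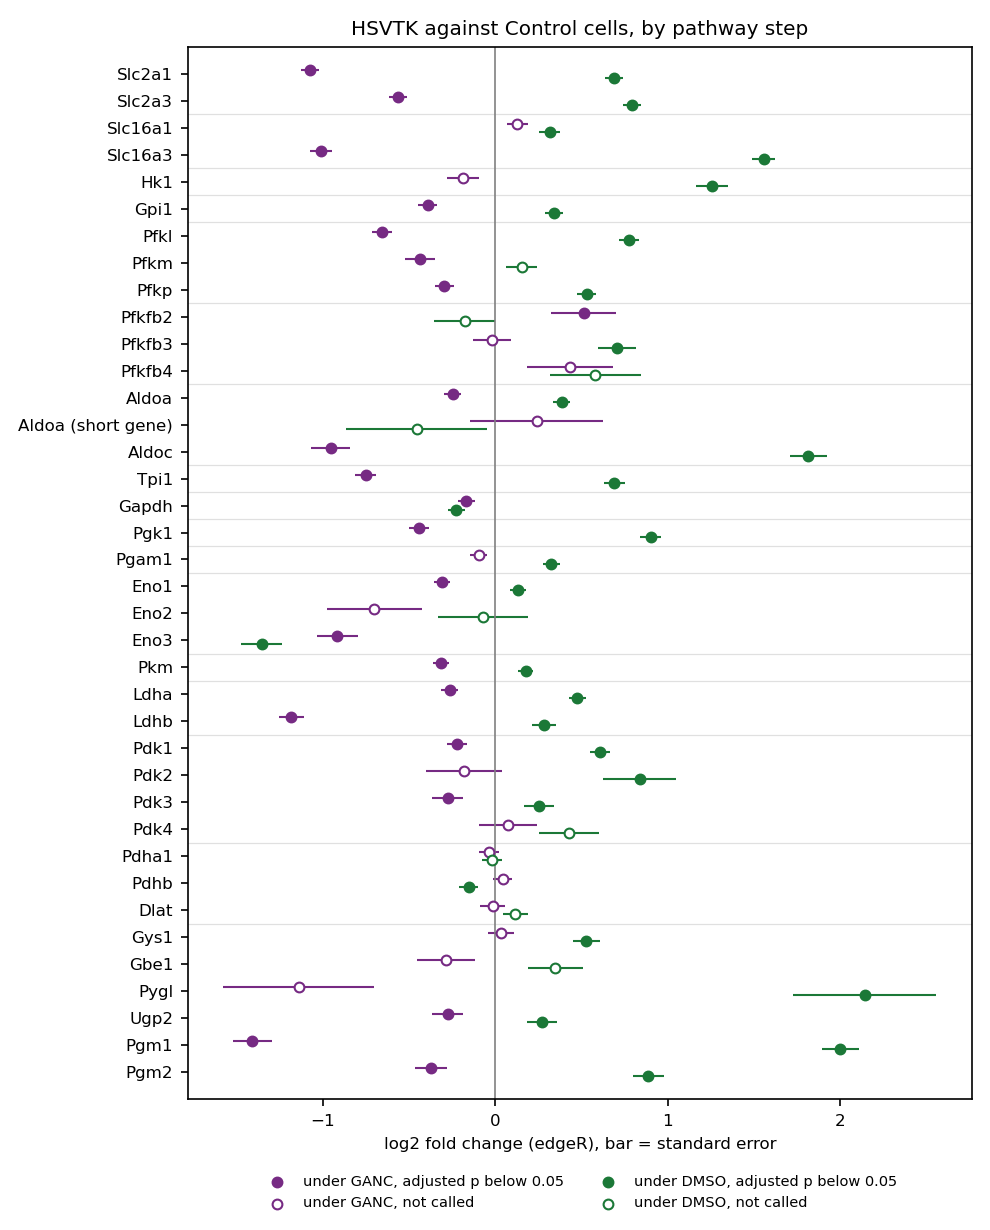
Log2 fold change of HSVTK against Control cells (x axis) for the 38 Ensembl genes in pathway order (y axis), under GANC (purple) and under DMSO (green), with bars for the standard error and filled points for an adjusted p below 0.05. Under DMSO 26 genes are called to the right of 0 and under GANC 22 are called to the left, while Eno3 lies left of 0 in both.

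The group means of 14 genes (36.8%) ran in the order HSVTK DMSO, Control GANC, Control DMSO and HSVTK GANC from high to low. That order was found at 1113 of all genes (6.19%). The 14 were Slc2a1, Slc2a3, Slc16a3, Gpi1, Pfkl, Pfkp, Aldoa, Aldoc, Tpi1, Pdk1, Pdk2, Pygl, Pgm1 and Pgm2, and at 8 of them the libraries were apart at every step. HSVTK DMSO had the highest mean at 25 genes (65.8%), against 29.5% of all genes, and HSVTK GANC the lowest at 23 (60.5%), against 25.1%. Abundant and rare genes were mixed along the range of changes: Spearman's rho between the mean level and the log2 fold change over the 38 genes, all measured in the same libraries, was 0.03 in HSVTK cells and 0.01 in Control cells. All 38 genes together took 1.80 and 1.84% of the counts in HSVTK GANC, 2.35 and 2.35% in HSVTK DMSO, 2.11 and 2.20% in Control GANC, and 1.95 and 1.89% in Control DMSO.

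**Figure D5:**
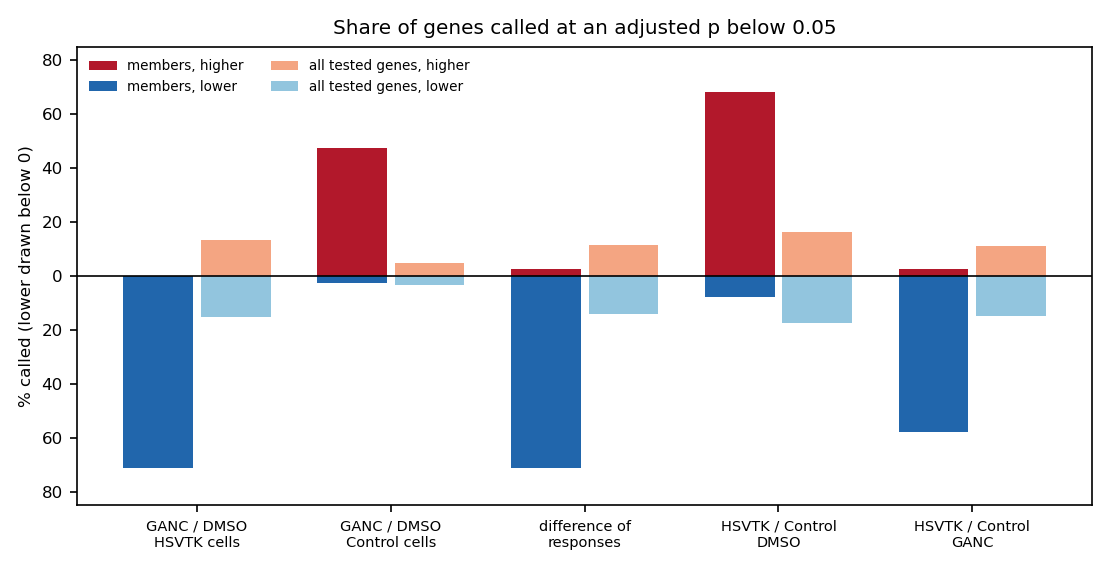
Share of the 38 genes (dark bars) and of all 17976 tested genes (pale bars) called at an adjusted p below 0.05 in each of 5 comparisons (y axis, percent, with lower calls drawn below 0). In HSVTK cells 71.1% of the set and 15.2% of all genes were lower with GANC, and under DMSO 68.4% of the set and 16.4% of all genes were higher in HSVTK than in Control cells.

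Other lists of glucose metabolism held calls in both directions with GANC in HSVTK cells, where 13.3% of all genes were called higher and 15.2% lower, against 4.73% higher and 3.35% lower in Control cells. Of 19 tested genes of glycolysis outside the set, 5 were lower and 1 higher with GANC in HSVTK cells, and 1 was higher in Control cells. The lower ones included the muscle mutase Pgam2 (-0.94 ± 0.27), and the higher one was Tigar, a fructose bisphosphatase that slows glycolysis (0.32 ± 0.07). Of 10 pentose phosphate genes, 1 was lower and 4 were higher in HSVTK cells, the lower one being Prps1 (-0.77 ± 0.06), which makes the ribose donor of nucleotides. Rpia, Rpe and Pgd, which handle or make pentose phosphates, were higher at 0.50 ± 0.14, 0.33 ± 0.06 and 0.21 ± 0.06. Of 7 gluconeogenesis genes, 3 were higher and 1 lower, with Fbp1, which opposes phosphofructokinase, at 1.78 ± 0.47. Of 18 other glycogen genes, 5 were lower and 2 higher, with the phosphorylases Pygb and Pygm at -0.78 ± 0.14 and -0.96 ± 0.24. In the 14 genes of pyruvate entry and carboxylation outside the set, 4 were lower and 1 higher, the higher one being Pcx (0.39 ± 0.09), which carboxylates pyruvate and was also higher in Control cells (0.41 ± 0.09). In Control cells 1 pentose phosphate gene, 1 gluconeogenesis gene and 2 genes of pyruvate entry and carboxylation were higher, and no other gene of these 4 lists was called there. The shares called in HSVTK cells among the other glycolysis genes and among those of pyruvate entry and carboxylation were near the 28.5% of all genes.

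Genes that control the pathway included both directions. Egln3 and Egln1, prolyl hydroxylases that mark HIF for destruction and are themselves HIF targets, had the same group order as Slc2a1. Egln3 stood at 2.78 and 3.26 FPKM in HSVTK GANC, 20.2 and 19.1 in HSVTK DMSO, 11.8 and 12.1 in Control GANC and 5.42 and 5.55 in Control DMSO, with -2.70 ± 0.10 in HSVTK cells (adjusted p = 5.41e-17) and 1.13 ± 0.10 in Control cells (adjusted p = 2.09e-08). Hif1a, the HIF subunit whose protein is regulated by oxygen, ran against it at the RNA level, with 16.9 and 15.7 FPKM in HSVTK GANC, 13.2 and 13.3 in HSVTK DMSO, 15.7 and 15.2 in Control GANC and 17.8 and 18.0 in Control DMSO. Its fold change was 0.30 ± 0.07 in HSVTK cells (adjusted p = 0.000946) and -0.21 ± 0.07 in Control cells (adjusted p = 0.0464). Myc, a transcription factor that raises glycolytic genes in many cells, was higher with GANC in HSVTK cells at 0.29 ± 0.07 (adjusted p = 0.00304), and its relative Mycn was lower at -0.57 ± 0.07 (adjusted p = 3.44e-07). Vhl, the ubiquitin ligase subunit that recognises hydroxylated HIF, was not called in HSVTK cells (-0.24 ± 0.09, adjusted p = 0.051). Txnip, which restrains glucose uptake, was lower in HSVTK cells (-0.27 ± 0.06) and higher in Control cells (0.36 ± 0.06). Over all 21 tested regulators, 5 were lower and 6 higher in HSVTK cells, and 1 lower and 4 higher in Control cells, beside 15.2% lower and 13.3% higher of all genes in HSVTK cells and 3.35% lower and 4.73% higher in Control cells. Of 19 tested HIF targets outside glycolysis, 15 were lower and 1 higher with GANC in HSVTK cells, with a median log2 fold change of -0.81, and 1 was lower and 7 were higher in Control cells, with a median of 0.32. Among them Bnip3, a mitophagy receptor, changed by -2.37 ± 0.09 in HSVTK cells and 1.03 ± 0.09 in Control cells. Ndufa4l2, a hypoxia-induced protein of mitochondria, changed by -3.77 ± 0.19 in HSVTK cells and 2.1 ± 0.19 in Control cells.

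Among other measures, some differed between the groups and others overlapped. The mitochondrial share of counts was 3.56 and 3.45% in HSVTK GANC, 3.16 and 3.13% in HSVTK DMSO, 3.16 and 2.88% in Control GANC, and 3.04 and 3.17% in Control DMSO. The counts of called markers stand beside 13.3% of all genes higher and 15.2% lower with GANC in HSVTK cells, and 4.73% higher in Control cells. Of 14 tested 2C-like genes, 10 were higher with GANC in HSVTK cells, and their 16 listed genes summed to 90.8 to 93.6 CPM (counts per 1e+06 counts) in HSVTK GANC, 44.1 to 44.6 in HSVTK DMSO, 34.5 to 39.9 in Control GANC and 42.3 to 42.4 in Control DMSO, with only Tcstv1 at 0, in Control GANC. The 12 pluripotency markers, none at 0, were lower at 5 with GANC in HSVTK cells, and summed to 5776 to 5968 CPM in HSVTK GANC, 6639 to 6753 in HSVTK DMSO, 5772 to 6113 in Control GANC and 5519.8 to 5624 in Control DMSO. Of 7 tested fibroblast and feeder markers, 3 were lower with GANC in HSVTK cells and 3 higher in Control cells. The 13 listed markers of that kind summed to 561 to 575 CPM in HSVTK GANC, 701 to 707 in HSVTK DMSO, 666 to 684 in Control GANC and 512 to 520.5 in Control DMSO. Of these, Postn, Dcn, Twist2 and S100a4 were at 0 in HSVTK GANC, Col3a1, Postn, Dcn, Lum and Twist2 in HSVTK DMSO, Twist2 and S100a4 in Control GANC, and Postn, Lum and S100a4 in Control DMSO. Trophectoderm markers, with Elf5 at 0 in HSVTK GANC, summed to 44.3 to 45.4 CPM in HSVTK GANC, 59.0 to 59.3 in HSVTK DMSO, 52.7 to 55.9 in Control GANC and 49.3 to 53.9 in Control DMSO, with 1 of 8 tested lower and 1 higher with GANC in HSVTK cells. Primitive endoderm markers, none at 0, summed to 299.9 to 325 CPM in HSVTK GANC, 291 in both HSVTK DMSO libraries, 239 to 263 in Control GANC and 229.9 to 238 in Control DMSO, with 3 of 13 lower and 3 higher with GANC in HSVTK cells. Of 8 tested mesoderm markers 2 were higher and 1 lower in that comparison, and of 6 tested neuroectoderm markers 1 was higher. The mesoderm and primitive streak markers, none at 0, summed to 11.6 to 11.7 CPM in HSVTK GANC, 11.0 to 12.1 in HSVTK DMSO, 9.31 to 12.8 in Control GANC and 11.7 to 11.8 in Control DMSO. The neuroectoderm markers, with Neurog2 at 0 in HSVTK GANC and Control DMSO, summed to 158 to 168 CPM in HSVTK GANC, 134 to 142 in HSVTK DMSO, 154 to 170.3 in Control GANC and 181 to 194 in Control DMSO. The part of these measures in the changes of the glycolysis set was not tested.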

How the data were processed

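Total RNA of 8 libraries was sequenced after phenol and chloroform extraction, per the labels. The build was GRCm39, and the tools listed were DESeq2 (1.40.2), featureCounts (2.0.1), HISAT2 (2.1.0) and fastp (0.23.2), per the submitters' processing notes. Parameters, strand, annotation release and the handling of reads with several matches were not given in the sources used here. In 2 tables, the authors deposited raw counts per gene for 57010 genes and FPKM made from them; all 456080 deposited FPKM equal counts divided by the deposited length and library total within 1e-05. The deposited length decides the level of one gene against another, and not the fold changes.

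The counts were tested with edgeR 4.0.16 in R 4.3.3: TMM scaling, filterByExpr, a mean per group, 4 residual degrees of freedom and the quasi-likelihood F test in 5 comparisons, with Benjamini-Hochberg adjustment over 17976 genes and calls below 0.05. That test draws each gene's estimate of spread toward the estimate over all tested genes. Its p-values therefore do not rest on a gene's own libraries alone. A standard error is the log2 fold change over the root of F. Levels are FPKM scaled with TMM factors. Alternatives were RLE and library size scaling, other filters, DESeq2 1.42.0, limma 3.58.1 on log2 FPKM with a pseudocount of 1 or 0.1, a replicate block, the 4 libraries of a comparison alone, leaving out each library and, chosen after seeing the data, exchanging the treatment labels of the HSVTK libraries. The fit was also tested on simulated data.

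Genes were matched by symbol. The 37 genes and 14 lists of related genes and cell markers, with 204 symbols of which 201 were in the files, were chosen with earlier results of these data known. Named outside the set are up to 4 genes per list with the lowest adjusted p for HSVTK GANC against HSVTK DMSO, annotated copies of the set's genes, and Hk2, Mpc1, Mpc2, Pdhx, Dld, Bsg, Hif1a, Egln1, Egln3, Vhl, Myc, Txnip, Tigar, Bnip3, Ndufa4l2, Zscan4c and Pou5f1. Promoter windows are of GRCm38.p6 and were not used with the files' coordinates.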

Additional observations from a re-analysis of the deposited data

Results flagged for a closer look

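The response to GANC differed between HSVTK and Control cells at 28 of the 38 genes, by the interaction term of the edgeR quasi-likelihood fit (Benjamini-Hochberg adjusted p below 0.05), where 25.6% of all genes were called. Values are the log2 response in HSVTK cells minus that in Control cells, with the standard error, from 2 libraries per group. Among the transporters, the difference was -1.76 ± 0.07 at Slc2a1, -1.36 ± 0.07 at Slc2a3 and -2.57 ± 0.09 at Slc16a3. At the upper steps it was -1.44 ± 0.13 at Hk1, -0.73 ± 0.08 at Gpi1, -1.43 ± 0.08 at Pfkl, -0.59 ± 0.13 at Pfkm and -0.83 ± 0.08 at Pfkp. For the aldolases and the triose phosphate isomerase it came to -0.63 ± 0.07 at Aldoa, -2.77 ± 0.16 at Aldoc and -1.44 ± 0.09 at Tpi1. From phosphoglycerate kinase to pyruvate kinase it amounted to -1.34 ± 0.08 at Pgk1, -0.42 ± 0.07 at Pgam1, -0.44 ± 0.07 at Eno1 and -0.49 ± 0.06 at Pkm. The lactate dehydrogenase subunits differed by -0.74 ± 0.07 at Ldha and -1.47 ± 0.10 at Ldhb. For the pyruvate dehydrogenase kinases the values were -0.83 ± 0.08 at Pdk1, -1.02 ± 0.30 at Pdk2 and -0.53 ± 0.13 at Pdk3. In the glycogen group they were -0.49 ± 0.11 at Gys1, -0.63 ± 0.23 at Gbe1, -3.28 ± 0.60 at Pygl, -0.55 ± 0.13 at Ugp2, -3.41 ± 0.16 at Pgm1 and -1.26 ± 0.13 at Pgm2. For the bifunctional regulators it was -0.72 ± 0.15 at Pfkfb3 (adjusted p = 0.000827) and 0.69 ± 0.26 at Pfkfb2 (adjusted p = 0.0499), the 1 positive value. The adjusted p was 1.8e-17 at Slc16a3, the lowest, and 0.0428 at Gbe1 and 0.0135 at Pdk2, the highest apart from Pfkfb2. The Gbe1 call was lost in 6 of the 8 fits that left out 1 library, all but those without Control GANC replicate 2 or HSVTK DMSO replicate 2 (adjusted p = 0.0614 to 0.190), and with DESeq2 (adjusted p = 0.118). The Pdk2 call was lost when replicate 2 was left out of HSVTK GANC (adjusted p = 0.0775), of HSVTK DMSO (adjusted p = 0.0625) or of Control GANC (adjusted p = 0.0645), and with DESeq2 (adjusted p = 0.0504). Both calls were also lost under some limma fits. With the treatment labels of the HSVTK libraries exchanged, the difference was called at 19 genes, higher at 18 and lower at 1. In that setting 1178 of all 17976 genes were higher and 1083 lower.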

How the results depend on the processing

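Each count of called genes was recomputed under other scaling, filters, tests and sets of libraries. No gene of the set that was called reversed its direction in any of the 5 comparisons under these. Exchanging the treatment labels of the HSVTK libraries, chosen after seeing the data, reverses the sign of the HSVTK treatment comparison by construction. Its 27 lower calls thus become 27 higher, which measures no dependence on the processing. With the exchange, 17 genes were called under DMSO (4 higher), where 1942 of all genes were higher and 2438 lower. Under GANC 26 were called (23 higher), where 2322 of all genes were higher and 2665 lower. Under the other alternatives, the count changed by more than 1.5 times in 2 comparisons. For Control GANC against Control DMSO, 19 genes became 6 with limma on log2(FPKM + 1), 11 on log2(FPKM + 0.1) and 4 on log2(FPKM + 1) without a filter on low values, and the count ran from 12 to 20 when 1 library was left out, the lowest without Control DMSO replicate 2. For HSVTK GANC against Control GANC, 23 became 14 with limma on log2(FPKM + 1) without a filter, and 20 to 23 with 1 library left out. The cause was not tested. Leaving out 1 library gave 25 to 27 for HSVTK GANC against HSVTK DMSO, 26 to 27 for the difference of responses and 23 to 29 for HSVTK DMSO against Control DMSO. Calls held under every alternative at 22 of 27 genes, 4 of 19, 22 of 28, 21 of 29 and 14 of 23, in the order HSVTK treatment, Control treatment, difference, DMSO and GANC. Deviations of libraries with the same replicate number were nearly uncorrelated between groups, at -0.03 to 0.01. That does not show whether these libraries were prepared together. With the replicate number as a block, 26, 19, 27, 29 and 23 genes were called, without Slc16a1 in the HSVTK treatment (adjusted p = 0.0605) and Pfkfb2 in the difference (adjusted p = 0.0555). Where 1 library of a group was left out, the lone library is assumed to vary like the other groups. With 2 libraries per group, small changes of weak genes such as Pygl and Pfkfb4 are limited by counts.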
